A study of Mus musculus with 28 samples.

Results

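The interleukin-2 (IL-2) receptor and STAT5 pathway was followed through 10 genes, picked by name from the 53801 features of the expression table. They were the receptor chains *Il2ra*, *Il2rb* and *Il2rg*, the Janus kinases *Jak1* and *Jak3*, the transcription factors *Stat5a* and *Stat5b*, and the feedback genes *Cish*, *Socs1* and *Socs2*. The libraries came from regulatory T (Treg) cells of mice that carried CT2A tumors, a murine glioblastoma (GBM) line, in the forebrain. Mice received either control IgG2a or a combination of an antibody against PD1 (αPD1), an inhibitory receptor, and one against GITR (αGITR), a co-stimulatory receptor that Treg cells carry. Each regimen was given 4 times at 250 µg per mouse, every 3 days, and tissue was taken 2 days after the last dose. The 27 libraries used comprised 7 of splenic Treg cells under IgG2a, 8 of splenic Treg cells under αPD1 + αGITR, 5 of GBM Treg cells under IgG2a and 7 of GBM Treg cells under αPD1 + αGITR. All mice bore a tumor, so the spleens are not those of healthy animals. Strain, sex and age of these mice are not given in the labels.

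IL-2 is bound by a receptor of an α chain (CD25, from *Il2ra*), a β chain (CD122, from *Il2rb*) and the common γ chain (CD132, from *Il2rg*). JAK1 sits on the β chain and JAK3 on the γ chain, and together they phosphorylate STAT5A and STAT5B, which enter the nucleus and bind DNA. Treg cells make little IL-2 themselves, carry high CD25 and depend on IL-2 from other cells to keep *Foxp3* expressed. CIS, SOCS1 and SOCS2, the products of *Cish*, *Socs1* and *Socs2*, are induced by cytokine signals and dampen them, so their transcripts are widely read as targets of the pathway.

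Cells had been sorted as TCR+CD4+CD25hi CD127lo, with CD8+ cells dumped. The protein of *Il2ra* was thus itself part of the gate, and so was that of *Il7r* (CD127). Levels of *Il2ra* describe cells already selected for CD25, and the part of the gate in any *Il2ra* value was not tested. *Foxp3*, the lineage factor of Treg cells, was present in every library, from 21.5 to 440.4 TPM (transcript counts scaled for length and to a fixed total per library). *Il2* itself did not exceed 0.41 TPM in any library. The T cell genes *Cd3d*, *Cd3e*, *Cd3g*, *Cd247*, *Cd4* and *Trac* summed to 167 to 2674 TPM.

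Libraries differed in composition. Between 7702 and 17460 features exceeded 1 TPM, and the 10 most abundant features held 31.9% to 78.3% of all TPM. Transcripts of 12 macrophage and microglia genes summed to 15209 TPM in GBM IgG2a library tumor_79_a, 6009 in GBM αPD1 + αGITR library tumor_73_a and 2200 in library tumor_74_a of that group. They stayed at or below 854 TPM in all splenic libraries. GBM IgG2a library tumor_369_a had the fewest detected features and stood apart in *Il7r*, at 277 TPM against 10.6 to 37.4 in the other 4 libraries of its group. TPM keeps no read depth, so the depth of each library is unknown and no counting interval can be given. The design names a different mouse for each spleen and for each tumor. Label numbers nevertheless repeat within groups, as in splenic IgG2a libraries spleen_79_a to spleen_79_d and splenic αPD1 + αGITR libraries spleen_70_a to spleen_70_c. In GBM, tumor_70_a and tumor_70_b share a number, as do tumor_73_a and tumor_73_b. The paper's legend for these data gives fewer animals per treatment than the splenic libraries used here. The main tests took each library as independent, and an alternative averaged same-numbered libraries. In bulk libraries, fewer cells of a type and less RNA per cell cannot be told apart.

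Promoter sequences are shown for *Cish* and *Socs1*, feedback genes of which 1 holds the letters that STAT5 binds and 1 does not. Windows run from 250 bases before to 50 bases after the RefSeq start site (GRCm38.p6), and 8 of the 10 genes matched an entry. TTCNNNGAA, the inverted repeat that STAT5 dimers bind, was searched on both strands, and capitals mark each match. The motif was chosen after the sequences had been seen. The *Cish* window lies at chr9:107296409-107296708 on the plus strand and the *Socs1* window at chr16:10785487-10785786 on the minus strand.
Cish: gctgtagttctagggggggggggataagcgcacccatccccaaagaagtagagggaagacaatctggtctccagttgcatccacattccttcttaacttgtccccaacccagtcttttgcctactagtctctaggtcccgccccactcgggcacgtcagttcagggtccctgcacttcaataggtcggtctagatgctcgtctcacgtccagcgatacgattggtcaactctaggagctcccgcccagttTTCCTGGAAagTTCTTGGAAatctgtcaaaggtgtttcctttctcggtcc
Socs1: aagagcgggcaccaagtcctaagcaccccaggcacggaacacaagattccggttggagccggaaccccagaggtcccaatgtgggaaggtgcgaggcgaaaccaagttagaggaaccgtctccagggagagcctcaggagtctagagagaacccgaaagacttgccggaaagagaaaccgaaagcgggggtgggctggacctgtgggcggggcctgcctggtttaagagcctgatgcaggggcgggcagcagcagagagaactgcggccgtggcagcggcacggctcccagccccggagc

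*Cish* held 2 copies of the motif, at positions 0 to 8 and 11 to 19 counted from 0 at the RefSeq start site. Among 32851 mouse promoters of the same length, 8.30% held at least 1 copy and 0.457% at least 2. The windows of *Socs1*, *Il2ra*, *Il2rg*, *Jak1*, *Jak3*, *Stat5a* and *Stat5b* did not hold these letters. *Il2rb* and *Socs2* had no entry. A match describes letters in a window and not a site in use.

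On the GRCm38 annotation (GENCODE vM21), *Il2ra* spans chromosome 2, 11642807 to 11693193, *Il2rb* chromosome 15, 78479256 to 78495271, and *Il2rg* chromosome X, 101264378 to 101268255. *Jak1* spans chromosome 4, 101152367 to 101265282, and *Jak3* chromosome 8, 71676296 to 71690575. *Stat5b* (chromosome 11, 100780731 to 100850724, minus strand) and *Stat5a* (100859351 to 100885169, plus strand) lie head to head, 8626 bases apart. *Cish* spans chromosome 9, 107296026 to 107302784, *Socs1* chromosome 16, 10782240 to 10785536, and *Socs2* chromosome 10, 95385362 to 95417180. Some of these genes overlap others, and the strand of the reads is not stated. *Stat5a* overlaps *Stat3* on the opposite strand, which reached 273 TPM, *Jak3* overlaps *Insl3* on the same strand (up to 45.7 TPM), and *Il2ra* overlaps the predicted gene *Gm37881* on the same strand (up to 63.9 TPM). *Cish* overlaps *Gm17040* and *Gm17041* on the opposite strand, at no more than 12.3 and 15.2 TPM. Reads in the shared stretches could have been assigned to either gene.

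All 10 genes had a value above 0 in every library, and 4 values were below 1 TPM: *Stat5a* (0.71) and *Stat5b* (0.47) in library tumor_369_a, *Stat5b* (0.98) in spleen_72_b and *Socs1* (0.63) in spleen_72_c. *Il2rb* was the most abundant receptor chain, at a median of 277 TPM over the 27 libraries against 102 TPM for *Il2ra*. *Il2rb* exceeded *Il2ra* in 26 of 27 libraries and *Il2rg* in 24. The STAT5 genes were the least abundant. *Stat5a* was above *Stat5b* in 21 of 27 libraries, with a median log2 ratio of 0.62. The transcripts of the STAT5 genes share 15.8% (*Stat5a*) and 11.8% (*Stat5b*) of their 50-base windows, so part of their reads can be assigned only by estimate.

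On the log2(TPM + 1) scale, 9 of the 10 genes had their highest group mean in GBM Treg cells under αPD1 + αGITR, as did 59.0% of the 8687 genes with a mean above 10 TPM in at least 1 group. The exception was *Stat5a*, whose mean on that scale was highest in splenic Treg cells under IgG2a. Its mean TPM was highest in GBM Treg cells under αPD1 + αGITR (25.6 against 24.3 TPM). On the linear scale the IgG2a group led in GBM for *Il2ra* and *Jak3* by less than the spread of either group (for *Il2ra*, 173 ± 136 TPM in 5 IgG2a libraries and 172 ± 36.5 TPM in 7 αPD1 + αGITR libraries, SD). Most neighbours in these orders could not be separated: of 30 neighbouring pairs of group means, 6 differed at p below 0.05 in a two-sided exact permutation test, before any correction. The pairs were set by ranking the same means, and the share over all genes was not computed. Some pairs differ in both tissue and treatment, as for *Il2ra* and *Cish* between GBM under IgG2a and spleen under αPD1 + αGITR.

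**Figure D1:**
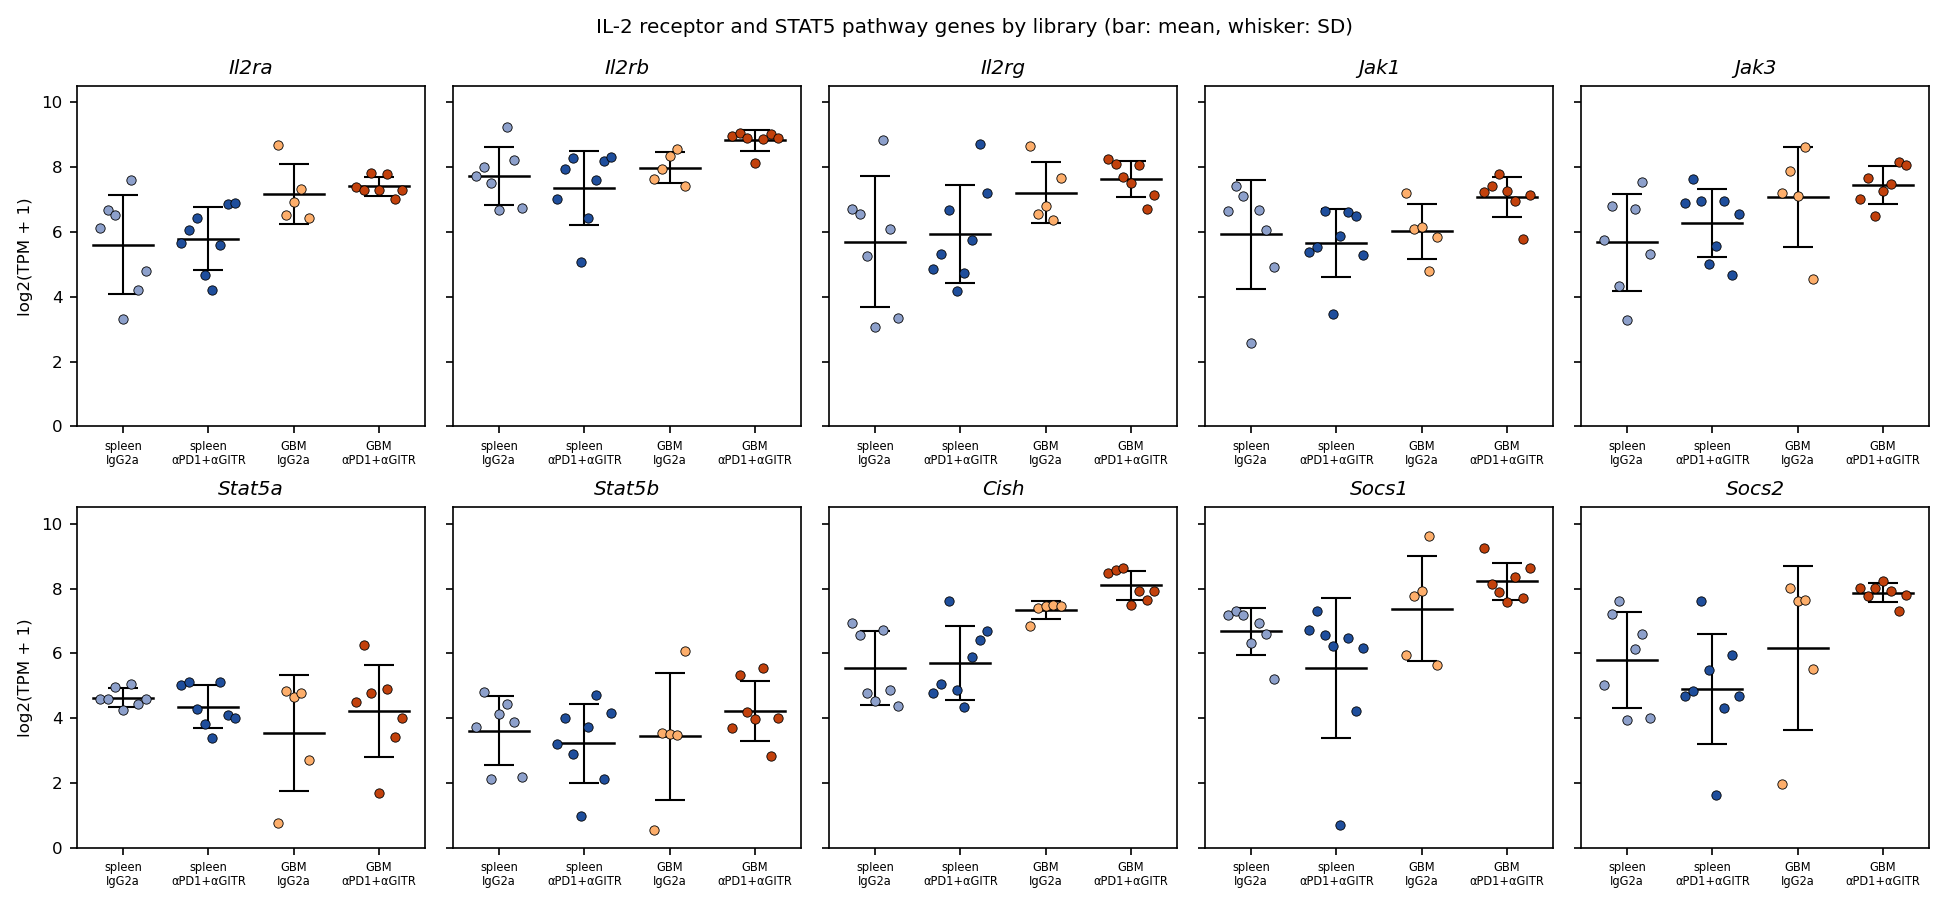
Expression of the 10 genes in each library, as log2(TPM + 1), in 4 groups. Points are libraries, the long bar is the group mean and the whiskers are the SD. *Cish*, *Il2rb*, *Socs1* and *Socs2* had their highest group mean in GBM Treg cells under αPD1 + αGITR, while the group means of *Stat5a* and *Stat5b* reached at most 25.6 TPM.

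The first comparison asked how αPD1 + αGITR altered the pathway in GBM Treg cells. All 10 genes had a higher mean log2(TPM + 1) under αPD1 + αGITR, but 71.6% of the 7848 genes tested did too. The median of all genes was 0.62 higher on that scale. The median of the 10 genes was 0.77. By the study's rule for changed genes (unadjusted p under 0.05 and more than 2-fold, here from limma), *Jak1* and *Socs2* rose, which is 2 of 10 against 21.7% of all genes (16.8% higher and 4.87% lower). No gene in the table passed an adjusted p of 0.05 in limma, although 1749 had an unadjusted p below 0.05. The lowest adjusted p was 0.0947. Leaving out 1 library at a time gave 0 to 3 of the 10 called (15% to 26.6% of all genes), with 0 without library tumor_73_a or tumor_79_a. None of the 10 separated the groups without overlap, as 1.77% of all genes did in the higher direction.

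Among the receptor chains, *Il2rb* separated the groups best. It stood at 170, 196, 245, 321 and 377 TPM in the 5 IgG2a libraries, and at 277, 477 and 526 TPM (lowest, median and highest) in the 7 αPD1 + αGITR libraries. The treated libraries were above every IgG2a library in 6 of 7 cases, and library tumor_73_a, with macrophage transcripts, was the exception. The difference was 0.85 ± 0.35 on the log2 scale (SE; limma adjusted p = 0.176; two-sided exact permutation p = 0.00379), which is less than 2-fold. Without library tumor_78_a it was 1.00 and just passed the rule (limma adjusted p = 0.144; 0.139 to 0.7105 over its alternatives). *Foxp3* showed a like difference of 0.79, with 5 of 7 treated libraries above all IgG2a libraries (exact permutation p = 0.0152). *Il2ra* stood at 84.3, 90.1, 120, 159 and 410 TPM under IgG2a and at 128, 157 and 224 TPM under αPD1 + αGITR. Of the 5 IgG2a libraries 3 were below every treated library and library tumor_369_a was above them all, and the difference was 0.24 (95% interval -0.66 to 1.15), or 0.62 without that library. *Il2rg* ranged from 81.8 to 399 TPM under IgG2a and from 104 to 301 TPM under αPD1 + αGITR, again with library tumor_369_a highest, and differed by 0.43 (exact permutation p = 0.337), or by 0.79 without it.

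*Jak1* stood at 26.8, 55.8, 67.3, 69.5 and 146 TPM under IgG2a and at 54.4, 151 and 219 TPM under αPD1 + αGITR. Of 7 treated libraries 4 exceeded every IgG2a library, and library tumor_74_a was low. The difference was 1.07 ± 0.48 (SE; limma adjusted p = 0.203; exact permutation p = 0.0429). The call was lost in 9 of the 12 fits that left out 1 library and after median-ratio scaling, where it was 0.85. *Jak3* did not separate the groups, at 22.6 to 393 TPM under IgG2a and 89.7 to 285 TPM under αPD1 + αGITR (difference 0.38, exact permutation p = 0.630).

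*Stat5a* and *Stat5b* varied more within the GBM groups than between them. *Stat5a* stood at 0.71, 5.62, 24.0, 26.2 and 27.9 TPM under IgG2a and at 2.23, 21.6 and 75.1 TPM under αPD1 + αGITR. *Stat5b* stood at 0.47, 10.3, 10.4, 10.6 and 66.7 TPM under IgG2a and at 6.20, 15.0 and 45.6 TPM under αPD1 + αGITR. Library tumor_369_a was lowest for both, and the other extreme of *Stat5b* was library tumor_79_a, the one with most macrophage transcripts. Differences were 0.67 for *Stat5a* (exact permutation p = 0.480) and 0.79 for *Stat5b* (p = 0.4015). Without the 3 libraries with over 1000 TPM of macrophage transcripts, an alternative chosen after the data were seen, *Stat5b* was higher by 1.77 and passed the rule (limma adjusted p = 0.247; over its alternatives adjusted p ran from 0.194 to 0.979). In the same setting *Socs2*, at 1.60 (limma adjusted p = 0.298), no longer passed.

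Of the feedback genes, *Cish* overlapped least between the groups. It stood at 114, 169, 175, 177 and 181 TPM under IgG2a and at 180, 244 and 395 TPM under αPD1 + αGITR. Of 7 treated libraries 6 exceeded all IgG2a libraries, and the difference was 0.76 ± 0.37 (SE; limma adjusted p = 0.232; exact permutation p = 0.00631). *Socs2* stood at 2.95, 44.6, 194, 200.3 and 260 TPM under IgG2a and at 156, 244 and 302 TPM under αPD1 + αGITR. Only 1 treated library exceeded every IgG2a library, and the low group mean came from libraries tumor_369_a and tumor_79_a. Its difference of 1.72 ± 0.76 (SE; limma adjusted p = 0.198; exact permutation p = 0.0442) became 0.67, and no longer passed the rule, without library tumor_369_a. The call was also lost without tumor_79_a, tumor_73_a or tumor_73_b, and in 11 of 22 alternatives in all. *Socs1* ranged from 49.0 to 782 TPM under IgG2a and from 193 to 605 TPM under αPD1 + αGITR, and differed by 0.84 (exact permutation p = 0.226). Without library tumor_78_a it was 1.40 and passed the rule (limma adjusted p = 0.140; 0.140 to 0.835 over its alternatives).

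In an alternative chosen after the data were seen, values were divided by the T cell genes of the same library. Then 7 of the 10 genes were still above 0 under αPD1 + αGITR and none was called, against 12% of all genes. *Il2rb* was then at 0.38, *Cish* at 0.28, *Socs2* at 1.24 and *Il2ra* at -0.24, and the median of all genes at 0.15. The share of called genes that were higher went from 77.5% to 28.2% (58.8% with median ratios and 46.4% with quantile normalization). The median of the T cell genes themselves was higher by 0.53, and none of these 6 genes passed the rule.

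In the spleen, the same comparison gave no called member. Of 6634 genes tested, 2.53% passed the rule (1.49% higher and 1.04% lower), and none passed an adjusted p of 0.05 in limma (168 had an unadjusted p below 0.05). The 10 genes split into 4 higher and 6 lower, with a median difference of -0.27 against 0.15 for all genes, and none had an unadjusted p below 0.05. The share of called genes that were higher went from 58.9% to 43.3% with quantile normalization, 34.9% with median ratios and 35.6% with T cell scaling. *Il2ra* stood at 9.02, 68.4 and 193 TPM (lowest, median and highest) under IgG2a and at 17.5, 57.2 and 117 TPM under αPD1 + αGITR. *Cish* stood at 19.6, 28.3 and 121 TPM under IgG2a and at 19.2, 45.5 and 195 TPM under αPD1 + αGITR. The groups overlapped in both genes. For *Il2ra*, 2 IgG2a libraries lay below and 1 above all treated libraries. For *Cish*, 1 treated library lay above and 1 below all IgG2a libraries. *Il2ra* and *Cish* differed by 0.19 (95% interval -1.21 to 1.59) and 0.16 (-1.18 to 1.51), so changes of 2-fold in either direction lie within these intervals.

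The other receptor chains and the kinases also overlapped. *Il2rb* stood at 101, 210 and 602 TPM under IgG2a and at 32.4, 220 and 313 TPM under αPD1 + αGITR (difference -0.37, exact permutation p = 0.512). *Il2rg* stood at 7.40, 67.3 and 459 TPM under IgG2a and at 16.9, 46.0 and 417 TPM under αPD1 + αGITR (difference 0.23, exact permutation p = 0.804). Relative to its mean, *Il2rg* varied most of the chains in both splenic groups (coefficients of variation 1.42 and 1.30), with libraries spleen_79_b and spleen_74_a high. *Jak1* stood at 4.98, 99.9 and 171 TPM under IgG2a and at 9.97, 51.4 and 99.96 TPM under αPD1 + αGITR (difference -0.26, exact permutation p = 0.715). *Jak3* stood at 8.77, 52.2 and 183 TPM under IgG2a and at 24.6, 105 and 197 TPM under αPD1 + αGITR (difference 0.60, exact permutation p = 0.376). Library spleen_79_a was lowest for both kinases and all 3 receptor chains under IgG2a. *Stat5a* was lower than in every IgG2a library in 4 of 8 treated libraries and higher in 2 (difference -0.28, exact permutation p = 0.314). *Stat5b* stood at 3.35, 13.9 and 27.2 TPM under IgG2a and at 0.98, 10.2 and 25.4 TPM under αPD1 + αGITR (difference -0.39, exact permutation p = 0.524).

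*Socs1* and *Socs2* had the most negative differences in the spleen. *Socs1* stood at 36.0, 121 and 159 TPM under IgG2a and at 0.63, 80.5 and 157 TPM under αPD1 + αGITR, a difference of -1.13 (exact permutation p = 0.218). *Socs2* stood at 14.5, 69.1 and 195 TPM under IgG2a and at 2.12, 26.2 and 197 TPM under αPD1 + αGITR, a difference of -0.89 (exact permutation p = 0.307). Library spleen_72_c was lowest for both, and the groups overlapped. *Socs1* passed the rule, at -1.99 with a limma adjusted p of 0.878, without the 4 libraries whose 10 most abundant features held over 70% of the TPM, an alternative chosen after the data were seen. Its adjusted p over all alternatives ran from 0.853 to 1.00.

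A test of whether the treatment difference was itself larger in GBM than in spleen covered 8687 genes, of which 12.2% passed the rule (6.80% higher and 5.35% lower) and none an adjusted p of 0.05 in limma (1056 had an unadjusted p below 0.05). Of the 10 genes, *Socs2* passed, with a difference of differences of 2.60 ± 1.16 (SE; limma adjusted p = 0.370). It became 1.56, and no longer passed, without GBM IgG2a library tumor_369_a, and the call was also lost without tumor_79_a, spleen_76_a, spleen_77_a or spleen_72_c, and at 2.48 without the 3 macrophage-rich libraries, where *Stat5b* passed at 2.16 (limma adjusted p = 0.548 and 0.545). *Socs1* followed at 1.98 (limma adjusted p = 0.461) and *Jak1* at 1.33 (adjusted p = 0.587). The median was 1.06 for the 10 genes and 0.45 for all genes. The share of called genes with a positive difference went from 56.0% to 42.2% with quantile normalization, 40.7% with T cell scaling and 62.6% with median ratios. Over 38 alternatives *Socs1* passed the rule in 6, *Jak1* in 3, *Il2rb* in 2 and *Stat5b* in 1, and *Socs2* lost its call in 7. Without the 4 splenic libraries dominated by 10 features, 17.3% of all genes were called and the median of all genes was 0.70. In that setting 4 of the 10 genes were called, with *Socs1* at 2.83. None of these gained calls passed an adjusted p of 0.05 in limma.

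**Figure D2:**
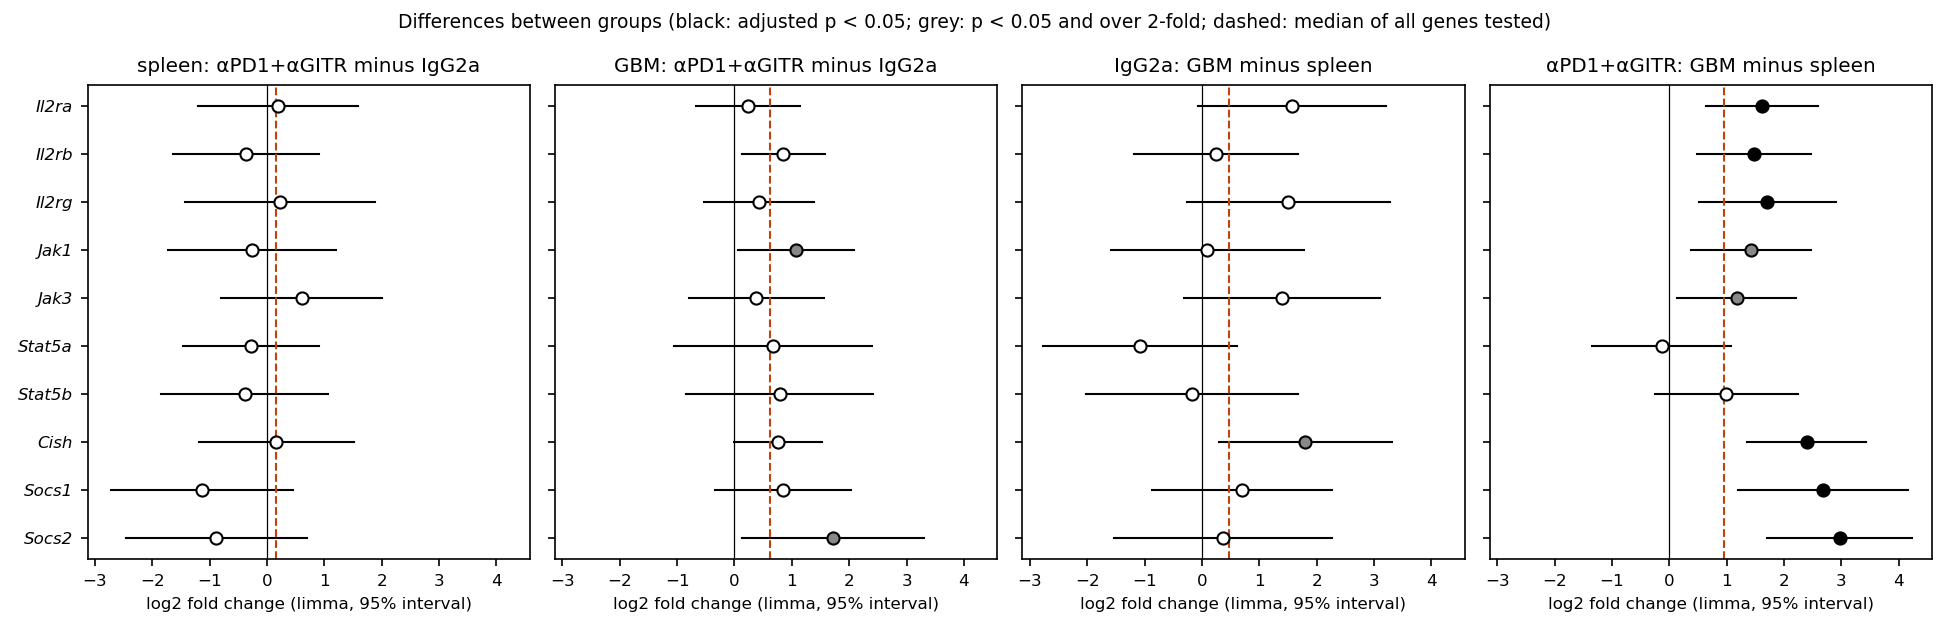
Log2 fold changes of the 10 genes in 4 comparisons, from limma on log2(TPM + 1), with 95% intervals. Black points passed an adjusted p of 0.05, grey points had an unadjusted p under 0.05 and more than 2-fold, and open points neither. The dashed line is the median of all genes tested, which lay above 0 in each panel and reached 0.95 between GBM and spleen under αPD1 + αGITR.

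The next comparison set GBM against splenic Treg cells in mice given IgG2a. Of 7380 genes tested, 9.93% passed the rule (7.63% higher and 2.30% lower in GBM). An adjusted p of 0.05 was passed by 0.488% (higher) and 0.0813% (lower). Of the 10 genes, *Cish* alone passed the rule, and none passed the adjusted p. The median difference of the 10 genes was 0.53 and that of all genes 0.48. Leaving out 1 library at a time gave 1 to 3 of the 10 called (7.9% to 12.7% of all genes), with 3 without library spleen_79_b. None of the 10 was higher in GBM without overlap, as 1.25% of all genes were.

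*Cish* in splenic libraries stood at 19.6, 28.3 and 121 TPM, and the GBM libraries at 114 to 181 TPM. Of 5 GBM libraries 4 exceeded all 7 splenic libraries, and library tumor_369_a overlapped with 1 of them, spleen_369_a. The difference was 1.80 ± 0.74 (SE; limma adjusted p = 0.394; exact permutation p = 0.0126), and over its alternatives the adjusted p ran from 0.130 to 0.801. Scaled to the 6 T cell genes, it was 0.69 and no longer passed. Of these T cell genes 1, *Trac*, rose by 1.89, and the median of the 6 was 1.11. Of 5 Treg genes 3 rose, and of 12 macrophage and microglia genes 2 rose (*C1qa* by 3.51 and *Cx3cr1* by 3.30).

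*Il2ra* was higher in GBM by 1.57 (exact permutation p = 0.0745) and *Il2rg* by 1.51 (p = 0.153). For each, 4 of the 7 splenic libraries lay below all GBM libraries, and *Il2rg* went as low as 7.40 TPM in the spleen. Without splenic IgG2a library spleen_79_b, which had the highest splenic value of all 3 receptor chains, both passed the rule, at 1.90 and 2.03. *Il2rb* differed by 0.25 (95% interval -1.18 to 1.68). *Jak3* was higher by 1.40 (exact permutation p = 0.145), and passed the rule at 2.03 without GBM library tumor_79_a. *Jak1* differed by 0.09 (exact permutation p = 0.923).

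*Stat5a* was the member with the lowest difference, -1.08 (exact permutation p = 0.122), in a tissue pair where most genes were higher in GBM. Its splenic values had the smallest coefficient of variation of the 10 genes (0.209), and stood at 18.0, 23.1 and 32.2 TPM. Of the 5 GBM libraries, 3 stood at 24.0 to 27.9 TPM, inside that range, and libraries tumor_79_a and tumor_369_a lay below it. Median-ratio scaling gave -1.63 and scaling to T cell genes -2.20, both past the rule, with limma adjusted p of 0.444 and 0.253 (0.253 to 0.801 over all alternatives). Under these scalings the median of all genes was -0.19 and -0.64, and the share of called genes that were higher in GBM went from 76.8% to 38.6% and 10.6% (43.4% with quantile normalization). *Stat5b* differed by -0.18 (exact permutation p = 0.837), *Socs1* by 0.70 (p = 0.340) and *Socs2* by 0.37 (p = 0.769).

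Under αPD1 + αGITR, the same pair of tissues gave the broadest difference. Of the 10 genes 8 were called, all higher in GBM, against 33.9% of the 7506 genes tested that were called higher (6.31% lower and 40.2% in either direction). An adjusted p of 0.05 was passed by 6 of them against 15.8% of all genes in this direction (1.61% lower). The median difference was 1.55 for the 10 genes and 0.95 for all genes. Without library tumor_70_a or tumor_72_a, 3 of the 10 passed the adjusted p, as did 625 of 7511 and 674 of 7513 genes. This comparison shares the treated GBM libraries with the first one and the treated splenic libraries with the second.

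The feedback genes led. *Socs2* stood at 2.12, 26.2 and 197 TPM in the 8 splenic libraries and at 156, 244 and 302 TPM in the 7 GBM libraries. The difference was 2.97 ± 0.61 (SE; limma adjusted p = 0.00355; exact permutation p = 0.000466), and only splenic library spleen_70_c reached into the GBM range. *Socs1* stood at 0.63, 80.5 and 157 TPM in the spleen and at 193, 281 and 605 TPM in GBM, with no overlap, and differed by 2.68 ± 0.72 (adjusted p = 0.0178; exact permutation p = 0.000311).

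*Cish* stood at 19.2, 45.5 and 195 TPM in the spleen and at 180, 244 and 395 TPM in GBM. Only splenic library spleen_70_c reached into the GBM range here too, and the difference was 2.39 ± 0.50 (SE; limma adjusted p = 0.00428; exact permutation p = 0.000466).

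The receptor chains followed. *Il2ra* stood at 17.5, 57.2 and 117 TPM in the spleen and at 128, 157 and 224 TPM in GBM, without overlap, a difference of 1.62 ± 0.47 (SE; limma adjusted p = 0.0263; exact permutation p = 0.000622). Non-overlap in this direction was seen in 2.96% of all genes tested, and in 2 of the 10 here, *Il2ra* and *Socs1*. *Il2rb* stood at 32.4, 220 and 313 TPM in the spleen and at 277, 477 and 526 TPM in GBM, with 6 of 7 GBM libraries above all splenic ones (1.47 ± 0.48, adjusted p = 0.0401). *Il2rg* was higher by 1.71 ± 0.58 (adjusted p = 0.0449), although splenic library spleen_74_a, at 417 TPM, exceeded every GBM library.

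*Jak1* rose by 1.42 ± 0.51 (SE; limma adjusted p = 0.0530) and *Jak3* by 1.17 ± 0.50 (adjusted p = 0.0884) by the unadjusted rule. *Jak1* stood at 9.97, 51.4 and 99.96 TPM in the spleen and at 54.4, 151 and 219 TPM in GBM, with 6 of 7 GBM libraries above all splenic ones. *Jak3* groups overlapped more, at 24.6, 105 and 197 TPM in the spleen and 89.7, 178 and 285 TPM in GBM. Over 27 alternatives *Jak3* lost its call in 10 and changed sign in a further 1, and *Jak1* lost its call in 4.

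Neither STAT5 gene passed the rule. *Stat5a* stood at 9.57, 17.4 and 33.6 TPM in the spleen and at 2.23, 21.6 and 75.1 TPM in GBM, a difference of -0.14 (95% interval -1.35 to 1.08; exact permutation p = 0.820). *Stat5b* stood at 0.98, 10.2 and 25.4 TPM in the spleen and at 6.20, 15.0 and 45.6 TPM in GBM, a difference of 1.00 (-0.25 to 2.24; exact permutation p = 0.105). Both groups overlapped in each gene.

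Other transcripts moved in the same libraries. Of the 6 T cell genes 4 were called higher in GBM under αPD1 + αGITR (*Trac* by 2.23, *Cd3e* by 1.57, *Cd247* by 1.44 and *Cd3g* by 1.38), and their summed level ran from 207 to 1830 TPM in the spleen and from 1190 to 2674 TPM in GBM. All 5 Treg genes were called higher, *Foxp3* by 1.19. Of 7 housekeeping genes 5 were called higher, among them *Actb* by 1.79 and *Gapdh* by 2.09. Of 12 macrophage and microglia genes 6 were called higher, with sums of 34.7 to 854 TPM in the spleen and 95.7 to 6009 TPM in GBM. *Alas2*, an erythroid gene and the only one of 5 in the table, was lower in GBM by 3.83.

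The result therefore depended on what each library was scaled to. Median-ratio scaling left 4 of the 10 called, against 26.6% of all genes, and 2 past the adjusted p (621 of 7800 genes). Quantile normalization left 5 called, against 27.1% of all genes, and 3 past the adjusted p (1094 of 7506 genes). Under these scalings the median of all genes went from 0.95 to 0.18 and 0.15, and the share of called genes that were higher in GBM from 84.3% to 53.1% and 47.9%. Relative to the 6 T cell genes, the median of all genes was -0.45, that share was 11.4%, and the receptor chains were nearly level, at 0.21 for *Il2ra*, 0.07 for *Il2rb* and 0.30 for *Il2rg*. *Socs2* was still higher by 1.56 and still passed the rule, while *Cish* at 0.99 and *Socs1* at 1.27 did not. *Stat5a* was then at -1.54 and passed the rule as lower in GBM, and no member passed an adjusted p of 0.05.

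**Figure D3:**
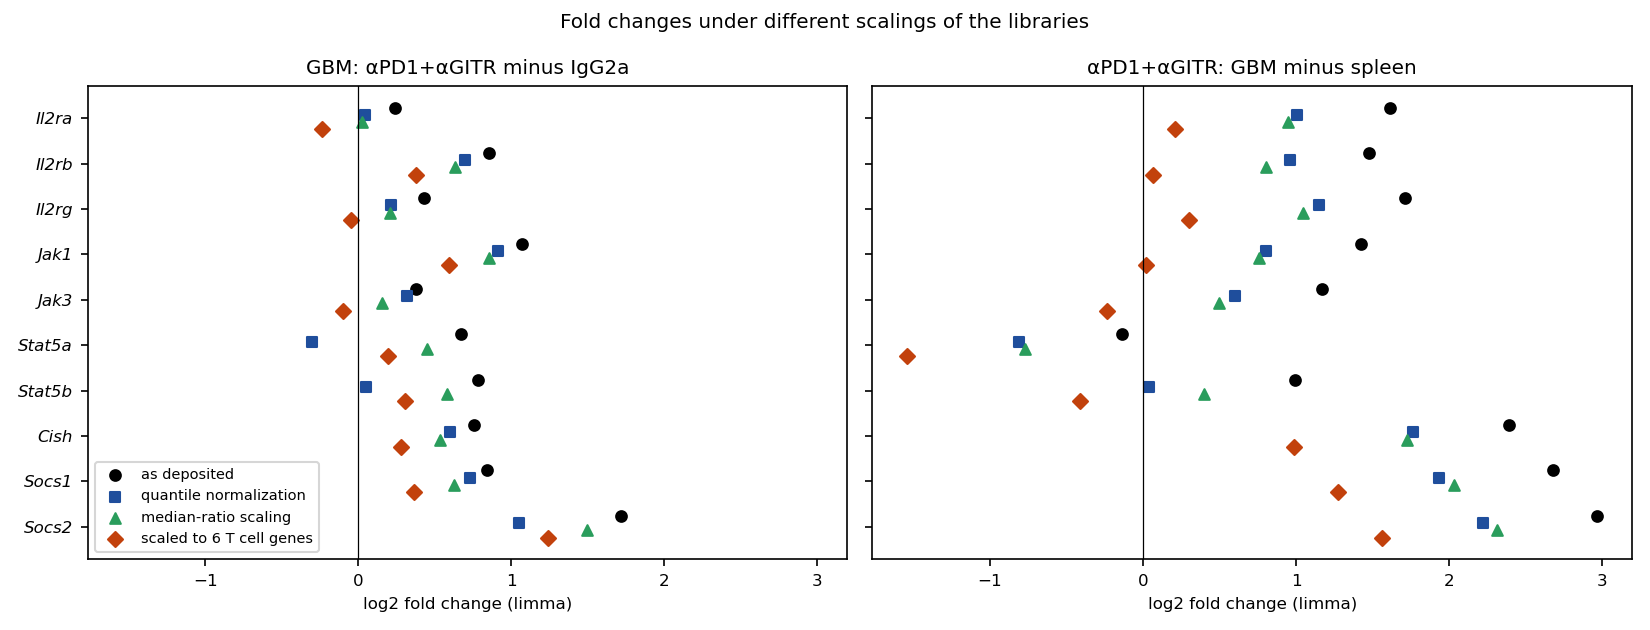
Log2 fold changes of the 10 genes in 2 comparisons with the libraries scaled in 4 ways: as deposited, by quantile normalization, by median ratios, and to the mean of 6 T cell genes. In the right panel the receptor chains moved from 1.47 to 1.71 down to 0.07 to 0.30 when scaled to T cell genes, while *Socs2* stayed at 1.56 or above under each scaling.

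Ratios of TPM + 1 between genes of the same library are given as a description with no test. Where a gene is low, as *Stat5a* is in some libraries, the added 1 pulls the ratio in and leaves it dependent on the scaling. The log2 ratio of *Cish* to *Stat5a* had a median of 0.44 (lowest -0.23, highest 2.35) in splenic IgG2a libraries and 0.99 (-0.26 to 3.32) in splenic αPD1 + αGITR libraries. It was 2.83 (2.56 to 6.08) in GBM IgG2a and 3.92 (2.31 to 5.81) in GBM αPD1 + αGITR libraries. Under IgG2a, the GBM libraries did not overlap with the spleen. *Cish* against *Il2rb* gave -2.36 in the spleen and -0.77 in GBM under IgG2a, and -1.74 and -0.62 under αPD1 + αGITR. *Il2ra* against *Il2rb* had medians between -1.64 and -1.24 in all 4 groups. Its means lay further apart under IgG2a, at -2.12 in the spleen and -0.81 in GBM (SD 1.125 and 1.058). *Cish* was thus higher in GBM relative to both a receptor chain and a STAT5 gene. Some overlap remained in all but the contrast of *Cish* to *Stat5a* under IgG2a. Higher medians in GBM were not particular to *Cish*. Under IgG2a, the medians against *Il2rb* in spleen and GBM were -2.14 and -1.38 for *Il2rg*. They were -0.67 and -0.40 for *Socs1*, and -2.69 and -0.91 for *Socs2*.

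**Figure D4:**
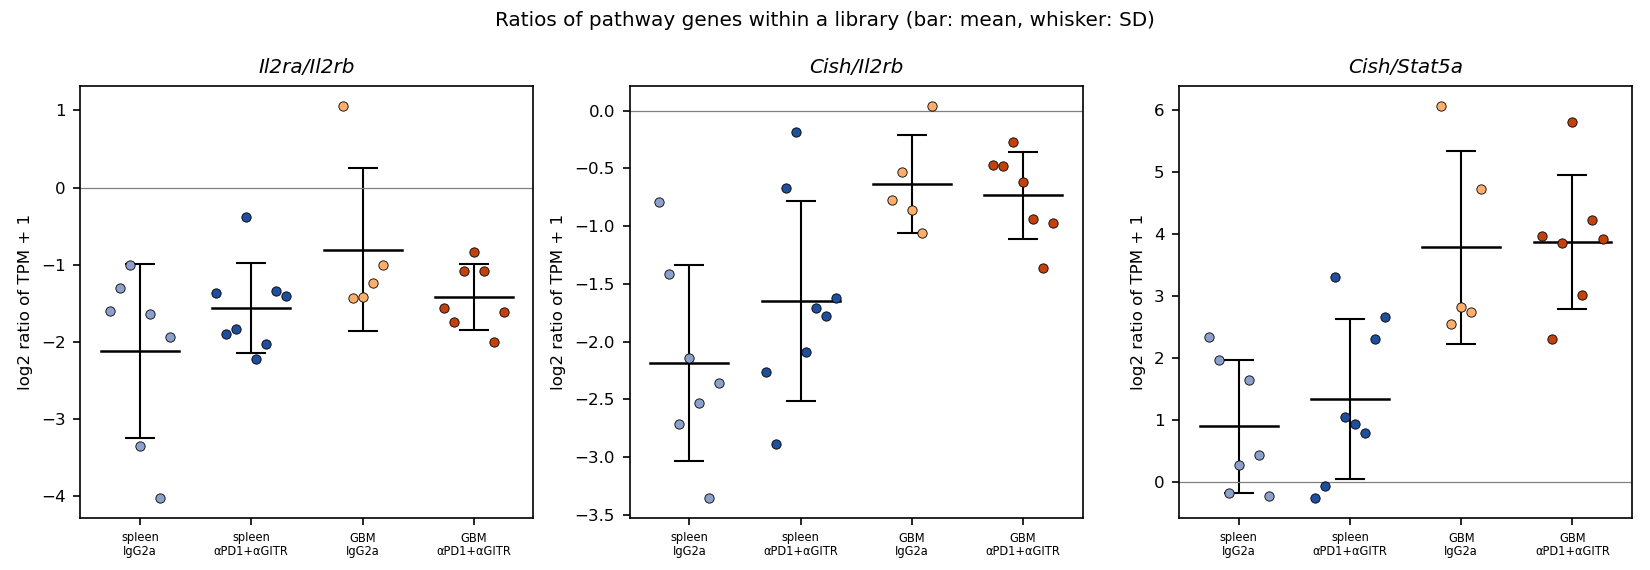
Log2 ratios of TPM + 1 between pathway genes inside each library, in 4 groups. Points are libraries, the long bar is the group mean and the whiskers are the SD. The ratio of *Cish* to *Stat5a* stood at 2.31 or above in every GBM library, and its group medians in the spleen were 0.44 and 0.99.

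Over all 27 libraries, the 45 pairs of the 10 genes had a median Spearman correlation of 0.43, with the highest for *Il2ra* and *Il2rg* (0.82) and 1 pair below 0. The libraries share tissue, treatment and composition, so these values describe the table. After the group means were taken off, the median Pearson correlation was 0.30. The genes most like *Il2ra* among 8686 were *Trac* (0.93), *Igtp* (0.92) and *Cytip* (0.91). Those most like *Il2rb* were *Foxp3* (0.90), *Hcls1* (0.86) and *Pkp3* (0.85), and *Nkg7* (0.91) and *Tap1* (0.90) were among those most like *Cish*. The median over all genes was 0.29 for *Il2ra*, 0.35 for *Il2rb* and 0.34 for *Cish*.

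A further 60 genes of the pathway were listed in 6 groups. Under αPD1 + αGITR in GBM, 11 of the 43 tested rose and none fell, against 16.8% higher and 4.87% lower of all genes. Among them were *Grb2* (2.00), an adaptor that links receptors to the Ras pathway, *Socs4* (2.11), the STAT5 target *Prdm1* (2.02) and *Stat3* (1.60). In the spleen 1 of 35 was called (2.53% of all genes), *Pim2*, a survival kinase that STAT5 induces, lower by 1.96. None of these calls passed an adjusted p of 0.05 in limma.

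Between GBM and spleen under IgG2a, 7 of 39 of these genes rose and 1 fell, against 7.63% higher and 2.30% lower of all genes. *Ctla4* (2.81), *Stat2* (2.47) and *Il10ra* (2.34) were higher in GBM, and *Bcl2*, an anti-apoptotic gene that STAT5 can induce, was lower by 2.99. Under αPD1 + αGITR, 20 of 42 rose and 1 fell, against 33.9% higher and 6.31% lower of all genes. An adjusted p of 0.05 was passed by 12 of the 42, against 15.8% higher and 1.61% lower of all genes. *Ctla4* (2.67), *Prdm1* (2.47), *Stat2* (2.44) and *Grb2* (2.25) were higher, and *Bcl2* was again the gene that fell, by 2.46 (limma adjusted p = 0.0190). Of 13 STAT5 targets tested there, 9 rose and 1 fell, against the same 33.9% and 6.31%. Among the γ chain cytokines *Il15* reached 9.87 TPM in 1 library and *Il21* 72.1 TPM in 1 GBM IgG2a library. *Il7r* did not pass the rule in any comparison.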

How the data were processed

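Treg cells were sorted from spleens and CT2A tumors and sequenced after Smart-Seq2 amplification of polyA RNA. The authors aligned reads to mm10 with TopHat2 and derived TPM with RSEM. The deposited table is TPM plus 1, so 1 was subtracted. Its values sum to 1 fixed total per library, so a transcript that takes a large share lowers all others, and PCR amplification adds spread to low genes. Strand and annotation release are not given in the sources used here. Of 28 libraries described, 27 had a named column, and 1 column without a sample name was not used. TPM keeps no read depth.

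Groups were compared with limma 3.58.1 (R 4.3.3) on log2(TPM + 1), with a pseudocount of 1, over genes with a mean above 10 TPM in at least 1 group, with Benjamini-Hochberg adjustment over all genes tested, two-sided. A fold change on this scale understates changes of low genes. The study's rule (p under 0.05, over 2-fold) was used for calls. The fit was tested on simulated data. For the members, exact permutation of the libraries gave a further p (two-sided, 40 tests, unadjusted). The members and gene lists were chosen with earlier results of these data known. All 10 members are named. Of each pathway list, genes that passed the rule were named, at most the 4 with the largest difference, plus *Il7r* and *Foxp3*. The 3 genes most alike were named for *Il2ra*, *Il2rb* and *Cish*. Some genes that this rule names are not reported here. Alternatives covered the pseudocount (0.1 and 10), the filter, 3 scalings, a covariate for detected genes, a fit of all 4 groups, averaging of same-numbered libraries, a block, and leaving out libraries. The scaling to T cell genes and the removal of libraries by macrophage transcripts or by their most abundant features were added after the data were seen.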

Additional observations from a re-analysis of the deposited data

Results flagged for a closer look

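In 40 groups examined (10 genes in 4 groups), 5 had a library at one end that was farther from the rest than Dixon's limit allows, where chance gives about 1 in 20 for independent groups. The 40 groups reuse the same 27 libraries and are not independent, and the share over all genes was not computed. The comparison was made on the log2(TPM + 1) scale, where all 5 were low values. *Il2rb* was 277.11 TPM in GBM αPD1 + αGITR library tumor_73_a, and *Jak1* was 54.37 TPM in library tumor_74_a of that group. Both libraries held macrophage transcripts above 1000 TPM, and the part of these in the values was not tested. *Cish* was 114.28 TPM in GBM IgG2a library tumor_369_a. In splenic libraries under αPD1 + αGITR, *Jak1* was 9.97 TPM in library spleen_72_b and *Socs1* was 0.63 TPM in library spleen_72_c.

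The effect of αPD1 + αGITR on *Socs2* differed between GBM and spleen by 2.60 on the log2 scale (limma adjusted p = 0.370), from a difference of 1.72 in GBM and -0.89 in the spleen.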

How the results depend on the processing

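Over 1360 values of member fold changes under alternatives, 1194 kept their direction and side of the rule, 60 lost a call, 26 gained one and 80 changed sign. No value of changed sign had an unadjusted p below 0.05. For αPD1 + αGITR in GBM, 1 of 10 was called with a pseudocount of 10 or no filter, and 0 with quantile or median-ratio scaling, averaging of same-numbered libraries, all 4 groups in one fit or scaling to T cell genes (0 to 3 without 1 library). Of all genes 12.4%, 5.95%, 14.3%, 15.8%, 15.2%, 17.5% and 12% were called in these settings, in that order (15% to 26.6% without 1 library). In the spleen 1 was called after averaging and without the libraries dominated by 10 features, against 2.88% and 3.94% of all genes. For GBM against spleen under IgG2a, 2 were called with 4 groups in one fit, median-ratio scaling or without macrophage-rich libraries (1 to 3 without 1 library). Of all genes 14.9%, 11% and 7.9% were called in these settings (7.9% to 12.7% without 1 library). Under αPD1 + αGITR, 5 were called with quantile normalization, 4 with median-ratio scaling and 2 with T cell scaling. Of all genes 27.1%, 26.6% and 24.1% were called in these settings. Past the adjusted p were 2 with no filter or median-ratio scaling, 3 with quantile normalization, averaging, 4 groups in one fit, or without macrophage-rich or dominated libraries, 0 with T cell scaling, and 3 to 7 without 1 library. Over all genes 256 passed with no filter, of 42667 tested. The other settings, in that order, gave 621, 1094, 254, 724, 360, 492 and 965, of 7506 to 7800 tested (591 to 2279 without 1 library). In the test of the difference between tissues, 2 were called with median-ratio scaling, 3 after averaging, 4 without dominated libraries, 0 with T cell scaling and 0 to 2 without 1 library. Of all genes 10.6%, 10.1%, 17.3%, 8.03% and 7.55% to 15.5% were called in these settings. The causes were not tested. TPM keeps no read depth, so counting error behind low values such as those of *Stat5a* and *Stat5b* is unknown.

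The labels of 9 GBM and splenic libraries are shared, but the design names different mice, and 1 of the 9 pairs deviated together with a correlation above 0.1 (range -0.15 to 0.16; 2 libraries matched their own label best). With the labels as a replicate block, 0 members were called under IgG2a, 4 under αPD1 + αGITR with 0 past the adjusted p, and 2 in the test of the difference. Of all genes 6.03%, 19.5% and 8.75% were called in these fits. *Socs1* was then -0.18 and *Socs2* -0.17 under IgG2a, and *Il2ra* -0.42 and *Il2rg* -0.84 in the difference.

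Signs changed as follows. αPD1 + αGITR in GBM: quantile, *Stat5a* -0.30; T cell scaling, *Il2ra* -0.24, *Il2rg* -0.0477, *Jak3* -0.10; without macrophage-rich libraries, *Jak3* -0.35; without 1 library, *Stat5a* -0.0243 to 1.09 and *Jak3* -0.25 to 0.76. Spleen: quantile, *Cish* -3e-04; median-ratio, *Il2ra* -0.0226, *Cish* -0.0581; covariate, *Jak1* 0.0826; averaged, *Il2ra* -0.11; T cell scaling, *Cish* -0.0209; without dominated libraries, *Il2ra* -0.44, *Il2rg* -0.49, *Jak3* -0.27, *Cish* -0.0065; without 1 library, *Il2ra* -0.19 to 0.52, *Il2rg* -0.21 to 0.75, *Cish* -0.11 to 0.40, *Jak1* -0.82 to 0.0523. IgG2a, GBM against spleen: pseudocount 10, *Jak1* -0.0256, *Stat5b* 0.0519; quantile, *Il2rb* -0.20, *Jak1* -0.51; median-ratio, *Il2rb* -0.39, *Jak1* -0.52, *Socs2* -0.23; averaged, *Jak1* -0.55, *Socs2* -0.10; T cell scaling, *Il2rb* -0.87, *Jak1* -1.03, *Socs1* -0.41, *Socs2* -0.75; without dominated libraries, *Il2rb* -0.16, *Jak1* -0.78, *Socs2* -0.36; without 1 library, *Jak1* -0.47 to 0.39, *Stat5b* -0.84 to 0.54, *Socs2* -0.10 to 1.41. αPD1 + αGITR, GBM against spleen: pseudocount 10, *Stat5a* 0.0089; T cell scaling, *Jak3* -0.24, *Stat5b* -0.41; without macrophage-rich libraries, *Stat5a* 0.53; without dominated libraries, *Stat5a* 0.10; without 1 library, *Stat5a* -0.47 to 0.29. Difference of the tissues: averaged, *Il2rg* -0.0799; T cell scaling, *Il2ra* -0.24, *Il2rg* -0.0890; without macrophage-rich libraries, *Il2ra* -0.0324; without dominated libraries, *Jak3* 0.65; without 1 library, *Il2ra* -0.28 to 0.43, *Il2rg* -0.32 to 0.64, *Jak3* -0.86 to 0.17.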
